A study of Mus musculus with 6 samples.

Results

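The replication-dependent histone genes were taken as all genes in the deposited table whose symbol starts with Hist, a digit from 1 to 4 and the letter h, which gave 70 of 34352 genes. They comprised 6 genes for the linker histone H1, 20 for H2A, 19 for H2B, 12 for H3 and 13 for H4, and 67 of the 70 are annotated as protein-coding. RNA came from livers of wild-type male C57BL/6 mice, 6 to 8 weeks old as the labels give their age, which received cadmium chloride (CdCl2) by gavage at 20 mg/kg/day or 0 mg/kg/day (controls) and were sampled at day 90. Each group had 3 libraries, and each of 3 batches named in the labels held 1 control and 1 cadmium library. The labels assign 6 mice to each group and do not say how mice map to libraries, so p-values measure only the spread between these libraries. The libraries are the input fraction of an m6A (N6-methyladenosine) immunoprecipitation, described in the labels as RNA fragments left unbound by the antibody, so abundance in the cells and the share bound by the antibody cannot be told apart.

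Replication-dependent histone genes supply the proteins that package newly copied DNA. H2A, H2B, H3 and H4, each in a pair of copies, form the nucleosome core, and H1 binds the DNA between cores. Their genes lie in clusters, mostly lack introns, and are transcribed mainly in S phase. Their mRNAs usually end in a conserved stem-loop rather than a poly(A) tail. The stem-loop binding protein SLBP and the U7 small nuclear RNP use that hairpin to cut the transcript, and the hairpin also couples decay of the mRNA to the end of DNA synthesis. Adult liver has few dividing cells, and several histone genes can also give polyadenylated transcripts in cells that have left the cycle. Libraries made from total RNA can hold mRNAs without a tail, which selection for poly(A) largely removes.

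A hairpin with a stem of 6 bases and a loop of 4 was found in the annotated transcripts of 44 of the 70 genes, in 6 sequence forms. Of the 26 genes without one, 17 had a longest annotated transcript whose length is a multiple of 3, as models without untranslated ends have. The most common form was found in 26 genes, and the form in the line for Hist1h4m in 7, all of them H4 genes. The hairpins of genes that carry results below are given 5′ to 3′ as DNA letters from GENCODE transcripts, with the stem-loop in capitals and flanking bases in lower case.
Hist1h1c: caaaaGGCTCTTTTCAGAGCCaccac
Hist1h1d: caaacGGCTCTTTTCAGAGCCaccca
Hist1h2ag: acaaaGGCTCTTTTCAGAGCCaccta
Hist1h2bm: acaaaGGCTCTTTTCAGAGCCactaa
Hist1h2bk: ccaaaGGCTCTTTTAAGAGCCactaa
Hist1h4m: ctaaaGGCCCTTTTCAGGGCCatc
Hist1h4h: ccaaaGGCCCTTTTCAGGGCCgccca
Hist1h4m and Hist1h4h carry the same hairpin, and their levels behaved differently: Hist1h4m was called higher in cadmium and Hist1h4h was not. Hist1h1c, Hist1h1d, Hist1h2ag and Hist1h2bm, all called higher, share the most common form. Other tested genes with that form were not called, for example Hist1h2ab, Hist1h2bg and Hist1h3a.

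Recovered reads per library ran from 42115960 to 68587128, of which the 70 histone genes held 17987 to 38939. Levels are the authors' deposited FPKM, which relate fragments to gene length and library size. The test was limma's on log2(FPKM + 1), for genes that reached 1 FPKM in 3 or more libraries, and a gene was called at an adjusted p under 0.05. Fold changes on this scale understate the change of low genes. Adjusted p-values cover all 9908 genes tested. All 70 genes summed to 442 ± 18.9 FPKM in controls and 582 ± 41.1 FPKM in cadmium (SD, n = 3), and the libraries of the groups did not overlap. In the authors' normalized reads the ratio of these sums was 1.16, against 1.31 in FPKM.

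Of the 70 histone genes 53 were tested, and 15 were called higher and 0 lower in cadmium. Among all 9908 genes 7.86% were called higher, 1.82% lower and 9.68% in either direction. The groups did not overlap for 28 of the 53, higher in 27 and lower in Hist1h2ba, where 33.6% of all genes did not overlap and 26.4% did so with a higher level in cadmium. In every batch the cadmium library was above the control for 33 of the 53, against 36.9% of all genes. For 27 of the 33, among them all 15 called, this follows from the groups not overlapping and is no separate result. An unadjusted p under 0.05 was reached by 28 of the 53 and by 2674 of all 9908. The 34 genes that reached the FPKM minimum in every library included 7 of the 15 calls (Hist1h1c, Hist1h1e, Hist1h2ak, Hist1h2bk, Hist1h3h, Hist1h4m and Hist1h4n). The other 8 (Hist1h1d, Hist1h2af, Hist1h2ag, Hist1h2ah, Hist1h2ao, Hist1h2ap, Hist1h2bm and Hist3h2a) reached it in 3 cadmium and fewer than 3 control libraries, so the filter itself favoured a higher level in cadmium among them. Among the 53, 16 reached it in 3 cadmium and fewer than 3 control libraries, and 1 (Hist1h2ba) the other way. The filter therefore bears on every count and median over the 53. With no filter all 70 were fitted: 63 had a log2 fold change above 0 (66.3% of all genes), with a median of 0.40 against 0.02 over 34351 genes, and 0 were called by limma, where 33 had an unadjusted p under 0.05, as did 5625 of all 34351 genes. Of all 34351 genes, 0.0902% were called higher in that fit.

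Calls depended on the pairing and on single libraries. With the batch number as a replicate block 4 of the 15 remained called (Hist1h2ag, Hist1h2ap, Hist1h4m and Hist1h4n), where 1.86% of all genes were called higher. Without cadmium replicate 3 only 3 were called (Hist1h2ag, Hist1h2ap and Hist1h2bm), without control replicates 2 or 3 it was 7 or 5, and without cadmium replicate 1 it was 6. Without cadmium replicate 2 calls were gained by 6 others (Hist1h1a, Hist1h1b, Hist1h3b, Hist2h3c2, Hist1h4f and Hist1h4k, adjusted p 0.0226 to 0.0476). Over all tested genes the median fold change was 0.09 on the log2 scale, and it was -0.01 with quantile normalization and -0.06 in the authors' log2 table. The median of the 53 histone genes lay above it by 0.40, 0.39 and 0.59. The number of histone genes called higher was 7 with quantile normalization (3.5% of all genes), 7 with trimmed mean scaling (3.75%), 10 with upper quartile scaling (5.15%), 8 in the authors' log2 table (3.85%) and 14 with voom on recovered reads (9.53%). Log2 fold changes were above 0 for 49 of the 53 in FPKM (66.7% of all genes) and for 40 in the authors' log2 table (41.3%). The filter bears on these values too, as given above.

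**Figure D1:**
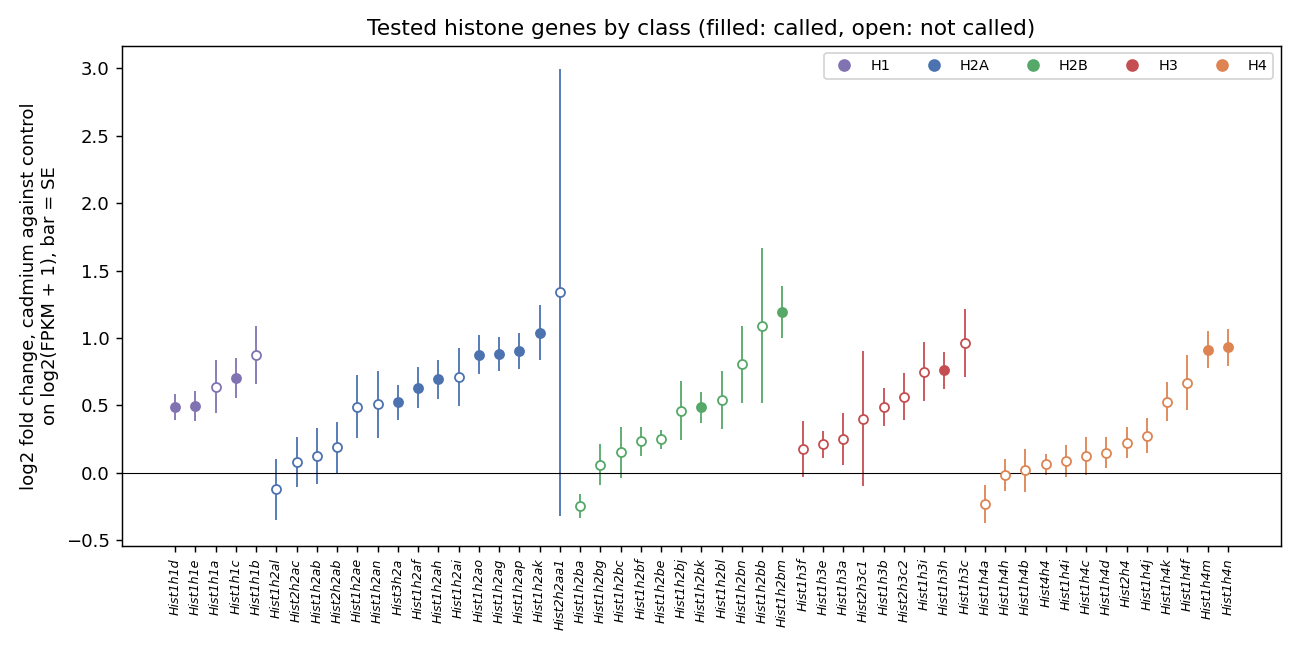
Log2 fold change (cadmium against control, on log2(FPKM + 1)) with its standard error for the 53 tested histone genes, ordered by class and size. Filled points are the 15 called genes, which lie between 0.48 and 1.19, and open points were not called.

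H1 genes, which encode the linker histones that compact the chromatin fibre, were called higher in 3 of 5 tested cases (7.86% of all genes). Their summed level was 33.3 ± 4.53 FPKM in controls and 54.1 ± 5.07 FPKM in cadmium (SD, n = 3), a ratio of 1.63. Hist1h1c (ENSMUSG00000036181, mm10 chromosome 13, 23738808 to 23740367, 1 exon), a linker variant abundant in resting tissue, held the largest part. Values are given here and below in the order of the replicate numbers. Its FPKM was 21.7, 15.2 and 18.8 in the controls and 28.2, 30.3 and 33.3 with cadmium. All 3 cadmium libraries stood above all controls, and the gene's log2 fold change was 0.70 (SE 0.15, adjusted p = 0.0307). Hist1h1e, another somatic linker histone, was at 12.1, 10.4 and 13.1 FPKM in controls and 16.3, 16.6 and 18.4 in cadmium (log2 fold change 0.50, SE 0.11, adjusted p = 0.0385). Its model shares exon sequence on the same strand with Hist1h2be and Gm11398, so some reads may be common to them. Hist1h1d was at 1.22, 0.953 and 1.36 FPKM in controls and 1.88, 1.97 and 2.29 in cadmium (log2 fold change 0.49, SE 0.10, adjusted p = 0.0267).

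The other tested linker genes, Hist1h1a and Hist1h1b, did not pass the threshold, although their groups did not overlap. Hist1h1b, a linker histone typical of dividing cells, was at 0.922, 0.941 and 0.545 FPKM in controls and 2.34, 1.43 and 3.36 in cadmium (adjusted p = 0.0554). Hist1h1a had group means of 0.854 ± 0.266 and 1.93 ± 0.728 FPKM (adjusted p = 0.0960), and its highest control and lowest cadmium library were both near 1.16 FPKM. Hist1h1t, the testis linker histone, did not exceed 0.0600 FPKM in any library and was not tested. The Hist1h1c call was lost without any 1 library other than control replicate 1 (adjusted p 0.0629 to 0.123), that of Hist1h1d without control replicate 2 or any 1 cadmium library (0.0583 to 0.111), and that of Hist1h1e without any 1 of the 6 libraries (0.0621 to 0.159). With the block the 3 adjusted p-values were 0.0758, 0.0584 and 0.0715, and after quantile normalization 0.0802, 0.0669 and 0.0861, in the order Hist1h1c, Hist1h1d, Hist1h1e.

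H2A genes were called higher in 7 of 15 tested cases, where 7.86% of all genes were. Of these 7 only Hist1h2ak reached the FPKM minimum in every control, so the filter favoured a higher level in cadmium for the other 6, and the 5 of them in the Hist1 cluster share 65.3% to 92.7% of their 100-base words with other genes. The summed H2A level was 46.7 ± 18.6 FPKM in controls and 80.2 ± 36.7 FPKM in cadmium (SD, n = 3), and the groups overlapped. All 7 called genes lack introns and have a low level, at most 6.38 FPKM in any library. Hist1h2ag (ENSMUSG00000069301, chromosome 13, 22042460 to 22042944) was at 1.05, 0.759 and 0.997 FPKM in controls and 2.16, 2.37 and 3.23 in cadmium. Every cadmium library was above every control (log2 fold change 0.88, SE 0.12). Its adjusted p of 0.0117 was the smallest among the histone genes and was 0.0464 with the block. Hist1h2ak (chromosome 13, 21753435 to 21753827) was at 2.14, 1.54 and 1.45 FPKM in controls and 4.36, 3.30 and 6.38 in cadmium (log2 fold change 1.04, SE 0.20, adjusted p = 0.0284). It shares only 10.5% of its 100-base words with other annotated genes, counting exact matches on the transcript strand. Where its reads came from was not tested.

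Hist1h2ao and Hist1h2ap are near copies that lie about 22.6 kb apart and share 92.7% and 92.2% of their 100-base words with other genes, so reads cannot be assigned to one of them with certainty. Their sum was 2.71, 1.77 and 2.01 FPKM in controls and 5.23, 4.79 and 7.22 in cadmium. Hist1h2ap alone was at 1.31, 0.868 and 0.974 against 2.67, 2.35 and 3.53 FPKM (log2 fold change 0.90, adjusted p = 0.0129), and Hist1h2ao at 1.40, 0.903 and 1.04 against 2.56, 2.44 and 3.69 FPKM (0.88, adjusted p = 0.0153). The sum rose in every batch.

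Hist1h2ah was at 0.943, 0.639 and 0.612 FPKM in controls and 1.55, 1.47 and 2.45 in cadmium (adjusted p = 0.0290). Hist1h2af was at 1.04, 0.935 and 0.745 against 1.75, 1.49 and 2.73 FPKM (adjusted p = 0.0442). Hist3h2a, the H2A gene of the small Hist3 cluster on chromosome 11, was at 1.73, 0.938 and 1.13 against 2.22, 2.33 and 2.10 FPKM (adjusted p = 0.0461), and its exons overlap Trim17 on the same strand. The H2A genes called here on chromosome 13 are overlapped on the opposite strand by predicted genes, and whether counting used strand is not given in the sources used here. Hist1h2ag and Hist1h2ap kept their call without any 1 library. The call was lost for Hist1h2ao without control replicate 3 (adjusted p = 0.0553) or cadmium replicate 3 (0.0510), for Hist1h2ah and Hist1h2ak without control replicates 2 or 3 or cadmium replicates 1 or 3 (0.0616 to 0.0918), for Hist1h2af without any 1 library other than cadmium replicate 2 (0.0728 to 0.127), and for Hist3h2a without any 1 library other than control replicate 1 (0.101 to 0.128). With the block the adjusted p was 0.0486 for Hist1h2ap, 0.0520 for Hist1h2ao, 0.0705 for Hist1h2ak, 0.0818 for Hist1h2ah, 0.0908 for Hist3h2a and 0.114 for Hist1h2af, and after quantile normalization Hist1h2ak, Hist1h2ah, Hist1h2af and Hist3h2a had 0.0544, 0.0748, 0.104 and 0.128.

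The 8 tested H2A genes without a call were Hist1h2ab, Hist1h2ae, Hist1h2ai, Hist1h2al, Hist1h2an, Hist2h2aa1, Hist2h2ab and Hist2h2ac. Hist2h2ac, the most abundant of them after Hist2h2aa1, was at 14.5 ± 4.06 FPKM in controls and 15.1 ± 1.38 FPKM in cadmium (adjusted p = 0.817). Hist1h2ai had group means of 0.804 ± 0.342 and 1.99 ± 0.811 FPKM (adjusted p = 0.0940). Hist1h2al, a processed pseudogene far from the rest of the Hist1 cluster, was at 1.97 ± 0.785 and 1.71 ± 0.558 FPKM (adjusted p = 0.773).

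**Figure D2:**
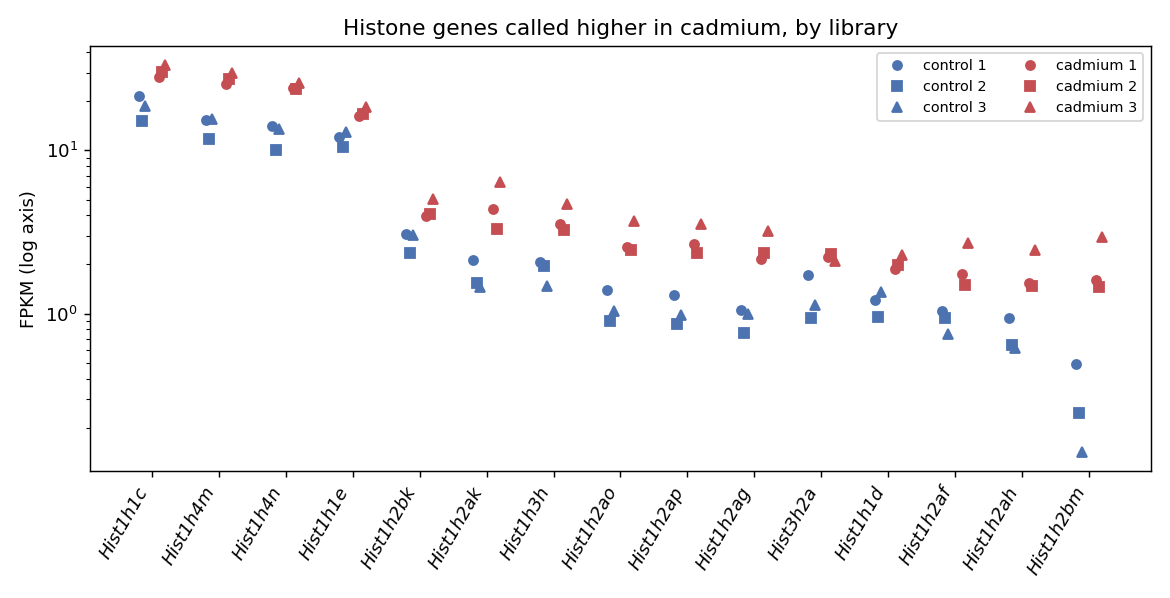
FPKM (log axis) of the 15 histone genes called higher in cadmium, ordered by mean level, with 1 point per library (blue control, red cadmium, shape by replicate number). For each gene the 3 cadmium points lie above the 3 control points, from Hist1h1c at 15.2 to 33.3 down to Hist1h2bm at 0.142 to 2.94.

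H2B genes, whose products pair with H2A in the nucleosome, were called higher in 2 of 11 tested cases (7.86% of all genes). Their sum was 75.7 ± 9.36 FPKM in controls and 98.0 ± 19.8 FPKM in cadmium (SD, n = 3). The ratio of these sums was 1.29 in FPKM and 1.09 in the authors' normalized reads, where the groups overlapped. Hist1h2bm (ENSMUSG00000114279, chromosome 13, 21722044 to 21722567) had the largest log2 fold change of the called histone genes at 1.19 (SE 0.19, adjusted p = 0.0182). It was at 0.488, 0.246 and 0.142 FPKM in controls, which rest on 19, 8 and 4 reads, and at 1.61, 1.47 and 2.94 FPKM in cadmium, from 45, 65 and 123 reads. The ratio of the means was 6.87, and only 6.59% of its 100-base words are shared with other genes. Hist1h2bk was at 3.07, 2.36 and 3.04 FPKM in controls and 3.95, 4.06 and 5.05 in cadmium (log2 fold change 0.48, SE 0.12, adjusted p = 0.0452). It shares 70.8% of its 100-base words with other genes and may share reads with them.

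Hist1h2bc, the most abundant H2B gene, was at 30.1, 46.9 and 46.4 FPKM in controls and 41.7, 43.7 and 49.7 in cadmium. The groups overlapped and the gene was not called (log2 fold change 0.15, adjusted p = 0.658). Hist1h2bb had 1 library far above the rest, with 19.6 FPKM in cadmium replicate 3 against 2.57 to 5.57 in the other 5 (adjusted p = 0.293). Hist1h2ba, an H2B variant known from testis, was lower in cadmium in all 3 batches, at 1.54, 1.25 and 1.46 FPKM in controls and 1.00, 0.895 and 1.21 in cadmium, and was not called (log2 fold change -0.25, adjusted p = 0.126). Also without a call were Hist1h2be, Hist1h2bf, Hist1h2bg, Hist1h2bj, Hist1h2bl and Hist1h2bn. The Hist1h2bm call was lost without control replicate 2 or 3 (adjusted p 0.0553 and 0.0566) and with the block (0.0657), and that of Hist1h2bk without any 1 library (0.0598 to 0.156), with the block (0.0715) and after quantile normalization (0.117).

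H3 genes encode the core histone whose tail carries many regulatory marks. Of 9 tested, 1 was called higher, where 7.86% of all genes were. Hist1h3h (ENSMUSG00000101355, chromosome 13, 21717659 to 21718069) was at 2.07, 1.97 and 1.48 FPKM in controls and 3.54, 3.24 and 4.72 in cadmium (log2 fold change 0.76, SE 0.14, adjusted p = 0.0204). The other 8 had log2 fold changes of 0.18 or more with no call. They were Hist1h3a, Hist1h3b, Hist1h3c, Hist1h3e, Hist1h3f, Hist1h3i, Hist2h3c1 and Hist2h3c2. Hist1h3c came nearest, at 2.01, 1.04 and 0.838 against 2.77, 2.73 and 4.93 FPKM (adjusted p = 0.0667). Summed over the class the level was 28.3 ± 2.18 and 42.6 ± 8.10 FPKM (SD, n = 3), a ratio of 1.51. In the authors' normalized reads that ratio was 1.29 and the groups overlapped. Hist1h3h lost its call with the block (adjusted p = 0.0778), in the deposited log2 values (0.0886), and without control replicate 3 (0.0582), cadmium replicate 1 (0.0591) or cadmium replicate 3 (0.0672). Hist1h3h shares 92.0% of its 100-base words with other genes and may share reads with them.

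H4 genes made up most of the summed histone FPKM, and 2 of 13 were called higher (7.86% of all genes). Hist1h4m (ENSMUSG00000069306, chromosome 13, 21811746 to 21812147) was at 15.4, 11.8 and 15.6 FPKM in controls and 25.6, 27.3 and 29.99 in cadmium (log2 fold change 0.91, SE 0.14, adjusted p = 0.0133). Its near copy Hist1h4n (chromosome 13, 21831767 to 21832196) was at 14.2, 10.1 and 13.5 against 24.2, 23.9 and 25.8 FPKM (log2 fold change 0.93, SE 0.14, adjusted p = 0.0133). In both genes the lowest cadmium library lay well above the highest control, and their sum went from 26.8 to 52.2 FPKM. They lie about 20.0 kb apart with Hist1h2ao and Hist1h2ap, share 88.1% and 80.7% of their 100-base words with other genes, and may share reads. Both kept the call with the block (adjusted p = 0.0486 each) and lost it without cadmium replicate 3 (0.0652 each).

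Hist1h4h was the most abundant histone gene, with 20.4% of the summed mean FPKM, and it did not move with Hist1h4m and Hist1h4n. It was at 109, 105 and 101 FPKM in controls and 101, 103 and 107 in cadmium (log2 fold change -0.02, SE 0.12, adjusted p = 0.947). Next in the class came Hist1h4d, at 28.4, 31.3 and 32.1 against 32.4, 32.5 and 37.2 FPKM (adjusted p = 0.457), and Hist1h4c, at 20.4, 27.95 and 23.9 against 28.6, 24.6 and 25.3 FPKM (adjusted p = 0.624). The groups overlapped for Hist1h4c and not for Hist1h4d, whose means were 30.6 ± 1.97 and 34.0 ± 2.73 FPKM (SD, n = 3), and whose fold change was negative in the authors' log2 table. Hist1h4f was at 14.3, 12.6 and 13.9 against 23.0, 15.98 and 29.7 FPKM, with cadmium replicate 2 the lowest of its group (adjusted p = 0.0874). Hist1h4k was at 16.5, 14.2 and 13.1 against 24.0, 17.9 and 22.7 FPKM, also with cadmium replicate 2 the lowest of its group (adjusted p = 0.0625). Hist1h4a was the other H4 gene with a negative value, at 9.15 ± 0.794 and 7.71 ± 1.47 FPKM (log2 fold change -0.23, adjusted p = 0.333), and Hist1h4b, Hist1h4i, Hist1h4j, Hist2h4 and Hist4h4 were not called. The summed H4 level was 259 ± 3.80 and 307 ± 22.5 FPKM (SD, n = 3), a ratio of 1.19 that was 1.02 in the authors' normalized reads.

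**Figure D3:**
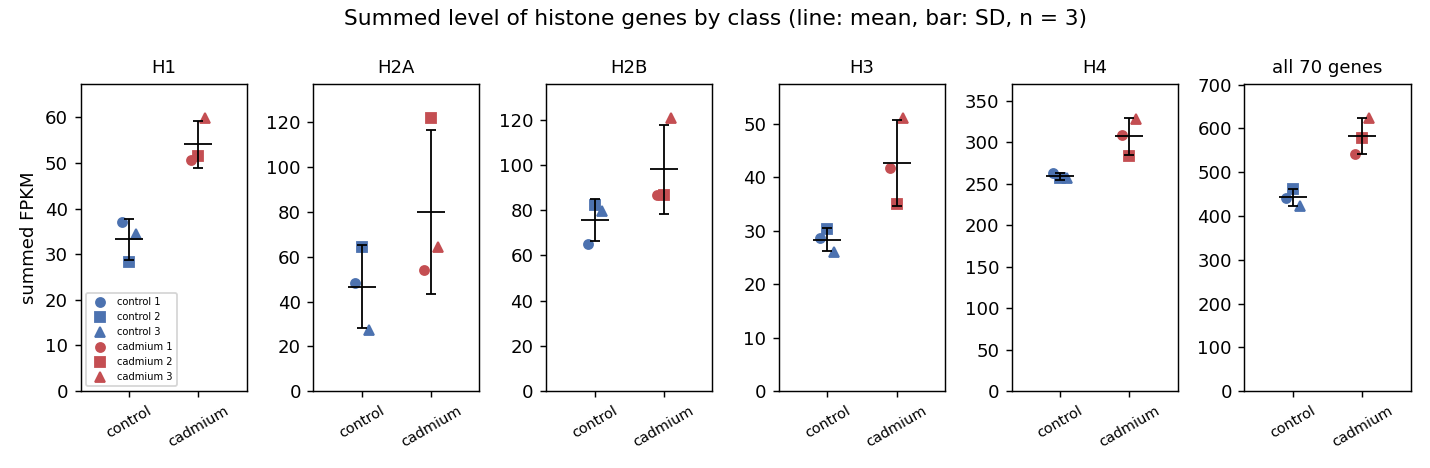
Summed FPKM of the histone genes in each class and in all 70 together, with 1 point per library, the group mean as a line and the SD as a bar (n = 3 per group). All axes start at 0. The groups do not overlap for H1, H2B, H3, H4 and the total, and they overlap for H2A, where batch 2 (squares) is highest in each group. In the authors' normalized reads, not drawn here, the groups overlap for H2A, H2B, H3 and H4.

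In order of mean FPKM the 10 most abundant histone genes were Hist1h4h, Hist1h2bc, Hist1h4d, Hist1h4c, Hist1h1c, Hist2h2aa1, Hist1h4m, Hist1h4n, Hist1h4f and Hist1h4k, which together made up 64.0% of the summed mean. Over all 6 libraries the range of Hist1h4h did not overlap that of Hist1h2bc, the next in order, and every other neighbouring pair among these 10 overlapped. Hist1h4m and Hist1h4n did not differ beyond their spread in controls, at 14.3 ± 2.16 and 12.6 ± 2.20 FPKM.

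In the Hist2 cluster of chromosome 3, the listed values of Hist2h2aa1, Hist2h2aa2 and Hist2h3c1 differed between batches more than between groups. Hist2h2aa2 and Hist2h3c1 share 100% of their 100-base words with other genes, and Hist2h2aa1 shares 88.3%. The predicted gene Gm20634 overlaps exons of Hist2h2aa1 and Hist2h3c1 on the same strand. Reads therefore cannot be assigned to one of these genes with certainty. Hist2h2aa1 was at 4.29, 38.7 and 0.305 FPKM in controls and 6.04, 78.2 and 6.94 in cadmium, so both libraries of batch 2 stood far above the others. Its near copy Hist2h2aa2 was listed at 2.95, 0 and 0 FPKM in controls and 6.35, 0 and 0 in cadmium, with a level above 0 in batch 1 only. Hist2h3c1, which encodes H3 beside it, was lowest in batch 2, at 0.785, 0.0195 and 1.09 against 1.54, 0.0646 and 2.25 FPKM. Its near copy Hist2h3c2 had groups that did not overlap, at 2.50, 2.90 and 3.03 FPKM in controls and 4.43, 3.49 and 6.31 in cadmium (log2 fold change 0.56, SE 0.17, adjusted p = 0.0872). The sum of this pair was 3.29, 2.92 and 4.12 FPKM in controls and 5.97, 3.55 and 8.56 in cadmium. None of these 4 genes was called, and the cause of the batch pattern was not tested. Without Hist2h2aa1 the sum over the other 69 histone genes was 428 ± 8.38 FPKM in controls and 551 ± 60.0 FPKM in cadmium, a ratio of 1.29. With the block Hist2h2aa1 had an adjusted p of 0.166.

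**Figure D4:**
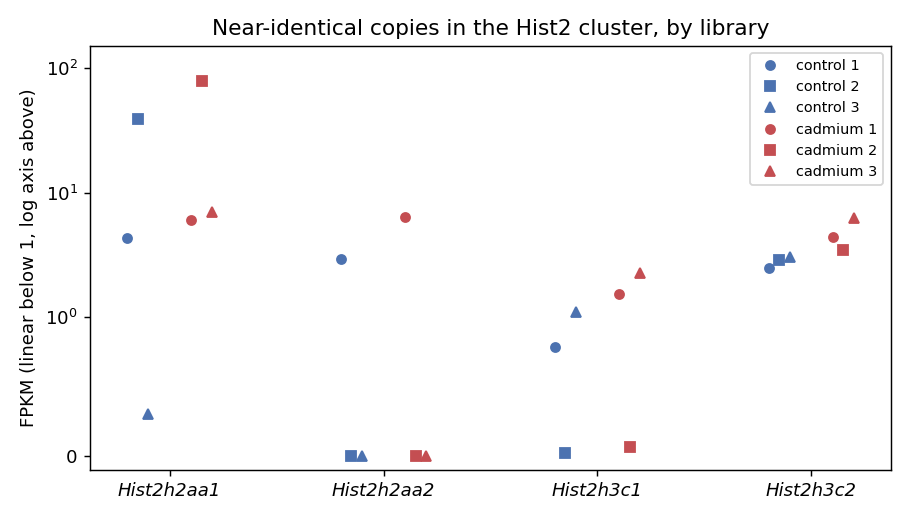
FPKM of 4 genes with near copies in the Hist2 cluster, 1 point per library, on an axis that is linear below 1 and logarithmic above. The squares are batch 2: for Hist2h2aa1 they lie at 38.7 and 78.2, above the other 4 libraries, and for Hist2h3c1 they lie at 0.0195 and 0.0646, below them.

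The 17 histone genes below the filter reached at most 6.35 FPKM in any library, and in 6 of them every cadmium library was above every control, where 13.1% of the 24444 genes below the filter were. The 5 with the highest mean were Hist2h2aa2, Hist1h2ad, Hist1h2aj, Hist1h2bq and Hist1h2bh. Hist1h2ad had group means of 0.593 ± 0.291 and 1.23 ± 0.636 FPKM, and Hist1h2aj of 0.562 ± 0.244 and 1.25 ± 0.388. Hist1h2bq was at 0.694 ± 0.0414 and 0.993 ± 0.227, and Hist1h2bh at 0.579 ± 0.0957 and 0.969 ± 0.401. Hist2h3b and Hist2h2bb were listed at 0 in all 3 cadmium libraries and at no more than 0.222 FPKM in controls.

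By the authors' deposited table, 14 of the 70 histone genes had an FDR under 0.05 with a higher level in cadmium and 0 with a lower level. By that rule 3.72% of all 34352 genes were higher and 3.15% lower. 10 of the 14 are among the 15 called here. The other 4 were Hist1h1b, Hist1h3c, Hist2h2be and Hist3h2bb-ps, of which the last pair were below the filter used here. In the authors' deposited table Hist1h2bm had a log2 fold change of 2.55 and an FDR of 2.72e-05.

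The Hist1 cluster on chromosome 13 falls into 2 blocks, apart from the pseudogene Hist1h2al. The first block spans mm10 positions 21715763 to 22043676, with 24 histone genes, and the second spans 23531050 to 23934851, with 31. In the first block 10 of 20 tested genes were called higher (7.86% of all genes). All 20 had a positive log2 fold change (66.7% of all genes), with a median of 0.76. In the second 4 of 24 were called, with a median of 0.24. Among the calls, Hist1h2ag, Hist1h2ah, Hist1h2ao, Hist1h2ap and Hist1h2bm (first block) reached the FPKM minimum in 3 cadmium and fewer than 3 control libraries. So did Hist1h1d and Hist1h2af in the second, and the filter favoured a higher level in cadmium for all of these. The summed level of the first block was 85.0, 71.4 and 73.7 FPKM in controls and 135, 121 and 159 in cadmium, a ratio of 1.80. The second block summed to 320 ± 7.23 FPKM in controls and 374 ± 38.3 FPKM in cadmium, a ratio of 1.17. The first block holds the near copies Hist1h2ao and Hist1h2ap, Hist1h4m and Hist1h4n, and the untested pair Hist1h2bq and Hist1h2br. Within its span 0 of the 21 other annotated genes were tested. The difference between the blocks was not tested. Of the smaller clusters, Hist2 had 0 calls in 6 tested genes, Hist3 had 1 in 1 (Hist3h2a) and Hist4 had 0 in 1 (Hist4h4).

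**Figure D5:**
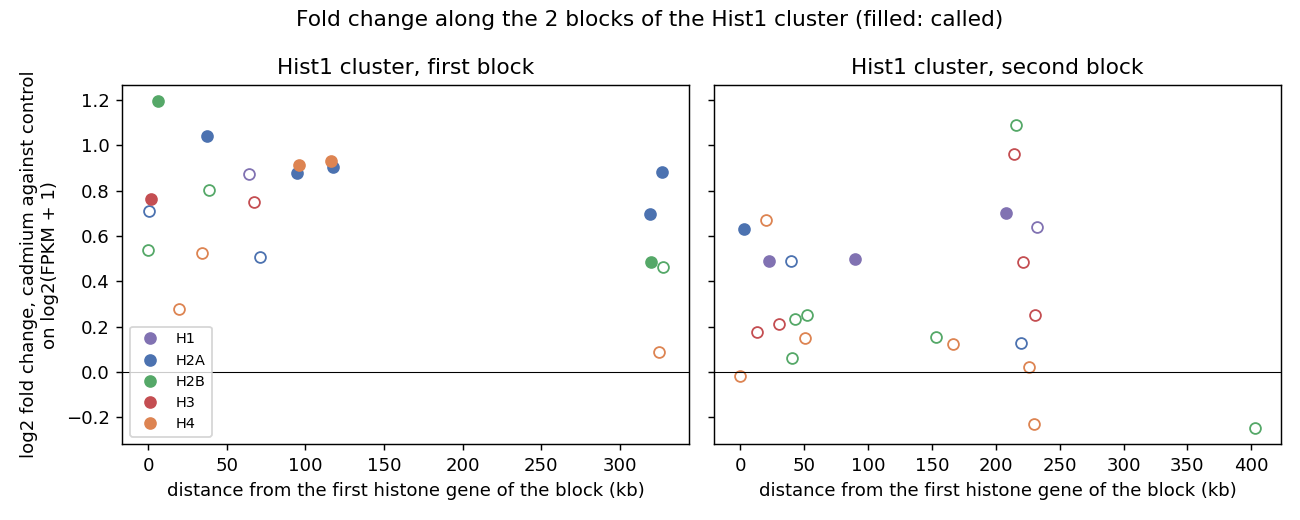
Log2 fold change (cadmium against control, on log2(FPKM + 1)) of tested histone genes against distance in kb from the first histone gene of each block of the Hist1 cluster, coloured by class. Filled points were called: 10 of 20 in the first block and 4 of 24 in the second, where 7.86% of all tested genes were called higher.

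The calls were also counted by features of the gene models. Of the 19 tested genes whose model ends within 100 bases after the hairpin 7 were called, against 4 of 17 whose model runs on further and 4 of 17 with no hairpin in the model. Of the 17 tested genes that share under 20% of their 100-base words with another gene 4 were called (Hist1h1c, Hist1h1d, Hist1h2ak and Hist1h2bm), and of the 36 that share more 11 were. These counts are descriptions, and their differences were not tested. Among all genes 7.86% were called higher.

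H2A and H2B genes often sit head to head and share one stretch of promoter DNA. Of 15 head-to-head pairs of histone genes, 14 joined an H2A with an H2B gene, with 173 to 306 bases between their starts. At least 1 gene was called in 7 of these 14 pairs, and both were called only in the pair Hist1h2ah and Hist1h2bk. In the other 6 pairs the partner was below the filter or missed the threshold: Hist1h2bj, the partner of Hist1h2ag, was at 2.76 ± 0.642 and 4.26 ± 1.56 FPKM (adjusted p = 0.240), and Hist1h2bn, the partner of Hist1h2ak, at 2.45 ± 1.09 and 4.97 ± 1.501 FPKM (adjusted p = 0.137). In the 5 pairs with both genes tested the log2 fold change was larger for the H2A gene in all 5, for example 0.88 for Hist1h2ag and 0.46 for Hist1h2bj. Of the H2A genes in these pairs, Hist1h2ae, Hist1h2ag, Hist1h2ah and Hist1h2ai reached the FPKM minimum in 3 cadmium and fewer than 3 control libraries. Their H2B partners reached it in every library, so the filter favoured a larger change for the H2A gene. The 5 pairs come from the same 6 libraries and are given as a description.

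RefSeq promoters of 300 bases (250 before to 50 after the start, GRCm38.p6) matched 62 of the 70 genes. Hist1h2ap was matched to the promoter of its near copy Hist1h2ao, so that promoter is counted for both genes below. The CCAAT box, to which the factor NF-Y binds, was searched as CCAAT on both strands. It lay in 53 of the 62 promoters (85.5%), against 37.4% of 32851 RefSeq promoters of that length: 6 of 6 H1, 18 of 18 H2A, 16 of 16 H2B, 10 of 10 H3 and 3 of 12 H4 promoters. The octamer motif ATTTGCAT, bound by Oct-1 in H2B promoters, lay in 13 of 62 (20.97%) against 1.74% of all, 7 of them H2A and 6 H2B. The TATA box TATAAA lay in 35 (56.5%) against 13.6%. GGTCCG, a motif chosen after the sequences had been seen, lay in 11 of 12 H4 promoters against 8.25% of all. Each was searched on both strands with matches of different motifs allowed to overlap. Promoters of head-to-head genes can overlap, as those of Hist1h2ag and Hist1h2bj do, so the same boxes can be counted for both genes.

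The 250 bases before the start of a called H2B, H2A, H1 and H4 gene show these differences in layout. Capitals mark the 4 motifs just named, on either strand, and each sequence is 5′ to 3′ on the strand of its gene.
Hist1h2bm, chr13:21721794-21722043, plus strand: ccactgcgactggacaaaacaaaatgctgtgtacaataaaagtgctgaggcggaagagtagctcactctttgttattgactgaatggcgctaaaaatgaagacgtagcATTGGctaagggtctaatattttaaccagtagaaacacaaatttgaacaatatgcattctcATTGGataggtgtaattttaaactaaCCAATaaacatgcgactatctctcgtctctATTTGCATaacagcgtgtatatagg
Hist1h2ag, chr13:22042950-22043199, minus strand: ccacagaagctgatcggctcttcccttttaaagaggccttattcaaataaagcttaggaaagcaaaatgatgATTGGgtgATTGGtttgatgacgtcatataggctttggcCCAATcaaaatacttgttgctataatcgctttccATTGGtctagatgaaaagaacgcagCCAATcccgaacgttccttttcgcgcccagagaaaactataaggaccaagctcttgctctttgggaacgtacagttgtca
Hist1h1c, chr13:23738557-23738806, plus strand: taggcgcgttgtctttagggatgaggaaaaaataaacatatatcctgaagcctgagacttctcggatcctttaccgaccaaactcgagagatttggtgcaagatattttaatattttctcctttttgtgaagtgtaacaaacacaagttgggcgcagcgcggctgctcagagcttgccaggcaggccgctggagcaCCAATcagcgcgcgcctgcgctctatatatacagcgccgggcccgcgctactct
Hist1h4m, chr13:21811496-21811745, plus strand: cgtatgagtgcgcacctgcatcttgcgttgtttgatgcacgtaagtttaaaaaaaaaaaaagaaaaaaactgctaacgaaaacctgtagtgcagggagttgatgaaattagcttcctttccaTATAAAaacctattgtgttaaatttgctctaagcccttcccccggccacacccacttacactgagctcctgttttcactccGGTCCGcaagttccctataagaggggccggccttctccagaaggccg
The Hist1h2ag and Hist1h2bm promoters hold several CCAAT boxes in both orientations, the Hist1h1c promoter holds 1, and the Hist1h4m promoter holds none of them. Hist1h4h, whose level did not differ, also holds GGTCCG.

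Genes that act with the replication-dependent histones were followed in lists chosen for their roles. Of 16 replication-independent histone genes, which supply histones outside S phase from polyadenylated mRNAs, 9 were tested and 0 called by limma. H1f0, a linker histone of resting cells, was at 29.5, 21.7 and 21.4 FPKM in controls and 31.6, 33.3 and 30.8 in cadmium (adjusted p = 0.131). H3f3b and H2afz were at 23.3 ± 3.72 and 20.5 ± 4.43 FPKM in controls and 28.3 ± 2.10 and 18.0 ± 0.478 in cadmium (adjusted p = 0.246 and 0.561). The median log2 fold change of the 9 was 0.12, against 0.09 over all genes.

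Of 20 genes for making or degrading histone mRNA 12 were tested, with 2 called higher (7.86% of all genes) and 0 lower (1.82%). By the FDR in the authors' deposited table, 0 were higher and 3 lower. Mif4gd, an SLBP partner in histone mRNA translation, went from 7.72 ± 0.486 to 10.8 ± 0.738 FPKM (log2 fold change 0.43, adjusted p = 0.0351), and Lsm10, a subunit of the U7 particle, from 4.05 ± 0.275 to 5.56 ± 0.327 FPKM (0.38, adjusted p = 0.0374). Both lost the call with the block (adjusted p = 0.0722 and 0.101), in the deposited log2 values (0.139 and 0.308), with quantile normalization (0.0831 and 0.104), and without any 1 library other than control replicate 1 (0.0664 to 0.161). Upf1, a helicase of histone mRNA decay, was at 17.7 ± 1.68 and 13.1 ± 1.80 FPKM (adjusted p = 0.0874). In the deposited log2 values (adjusted p = 0.0228) and with quantile normalization (0.0417) it was called lower, as was Ncbp1, a subunit of the nuclear cap-binding complex (0.0231 and 0.0434). With Cpsf2, these are the 3 that the authors' deposited table has lower, and Ncbp1 and Cpsf2 are named after their values were seen. Sympk and Srrt were not called. Of 20 histone chaperones, which carry histones to DNA, 16 were tested and 0 called by limma, with Set, Hjurp and Npm1 the most abundant. By FDR 1 of the 20 was lower in the authors' deposited table (Nasp, named after its value was seen).

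Of 30 S phase genes only 6 were tested and 0 were called by limma. Pcna, the sliding clamp of DNA polymerase, was at 7.73 ± 0.823 and 7.38 ± 0.511 FPKM (adjusted p = 0.776), and Tk1, an enzyme of nucleotide supply, was at 3.37 ± 0.462 and 2.95 ± 0.221 FPKM (adjusted p = 0.408). By FDR 1 of the 30 was higher (Uhrf1) and 1 lower (Ccne1) in the authors' deposited table, both below the filter and named after their values were seen. None of the 22 genes of G2 and M phase reached the filter. Their summed level was 1.92, 1.51 and 1.31 FPKM in controls and 3.74, 2.45 and 4.95 in cadmium, so the groups did not overlap. In 12 of the 22 every cadmium library was above every control, against 13.1% of the 24444 genes below the filter. Mki67, a proliferation marker, was at 0.137, 0.0988 and 0.0491 FPKM in controls and 0.425, 0.152 and 0.542 in cadmium. By the authors' deposited table, 4 of the 22 had an FDR under 0.05, all higher in cadmium (Top2a, Bub1, Bub1b and Tpx2, named after their values were seen). The part of dividing cells in the histone values was not tested.

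Of 15 other RNAs without a poly(A) tail 13 were tested and 0 were called by limma, with a median log2 fold change of 0.01. Rn7s1, Rn7s2 and Rpph1 were the most abundant of them. Of 26 neighbours of the histone clusters 14 were tested and 2 were called higher (7.86% of all genes). Slc17a4, a transporter gene inside the second Hist1 block, went from 2.94 ± 0.604 to 6.23 ± 1.02 FPKM (adjusted p = 0.0182) and lost its call without cadmium replicate 1 (0.0623) or 3 (0.0727). Atf7ip, next to the Hist4 gene, went from 1.17 ± 0.137 to 1.73 ± 0.0950 FPKM (adjusted p = 0.0416), with 0.0873 under the block and 0.0565 to 0.164 without any 1 library. Hebp1, Rnf187 and Slc17a2 were not called.

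Summed levels of stellate, macrophage and neutrophil markers did not overlap between the groups, and those of the other marker lists overlapped. Hepatocyte markers were present throughout, as the label liver requires, with 1 of 6 called higher (Fgb), where 7.86% of all genes were. Stellate and fibroblast markers were called higher in 5 of 6 cases, and their summed level was 9.24 to 15.7 FPKM in controls and 24.7 to 28.9 in cadmium. Of 6 tested Kupffer cell and macrophage markers 2 (Cd68 and Adgre1) were called higher, with sums of 18.8 to 28.7 and 30.3 to 32.6 FPKM. Only 4 of these 6 had a log2 fold change above 0. By FDR 3 of the 7 listed macrophage markers were higher and 1 lower in the authors' deposited table. Sinusoidal endothelial markers were called in 1 of 5 cases (Lyve1), with sums of 15.9 to 23.8 and 21.3 to 29.5 FPKM, and of the neutrophil markers S100a9 was called, with sums of 0.0799 to 0.722 and 1.30 to 1.75 FPKM. None of the 7 T and NK cell markers reached the filter, with sums of 0.664 to 1.21 and 0.996 to 1.38 FPKM. B and plasma cell markers summed to 1.70 to 4.13 and 4.07 to 6.86 FPKM, erythroid markers to 64.5 to 238 and 91.8 to 295, and cholangiocyte markers to 0.931 to 1.43 and 1.10 to 3.77, with 0 calls by limma. With the block Col1a1, Col1a2, Col3a1 and Adgre1 stayed called, and without cadmium replicate 3 only the 3 collagen genes did, the other 7 having adjusted p-values of 0.0683 to 0.187. In bulk liver, more cells of a type and more RNA per cell cannot be told apart, and the part of these cell types in the histone values was not tested.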

How the data were processed

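The authors deposited 2 tables for the 6 libraries. One gives FPKM for 55335 genes, which the authors scaled by gene length and library before deposit, per the file headers. The authors' second table gives log2 values with symbols for 34352 genes, the mean per group, a log2 fold change, and a p-value with its FDR from a test that the sources used here do not name. Per the submitters' processing notes the genome was mm10. The tools named there without a role are STAR 2.7.1a, cutadapt 1.1.8, MACS2 2.1.1, DESeq2 and SAMtools 1.3.1. Read counter, annotation release and strand setting are not named there. Undoing log2 and subtracting 1 gave whole multiples of 1 step per library for 100% of values (within 0.05 of a read), the pattern of reads divided by a size factor, and the recovered reads were used in an alternative fit.

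The comparison used limma 3.58.1 (R 4.3.3) on log2(FPKM + 1), two-sided, with a variance trend and robust moderation. It covered 9908 genes that reached 1 FPKM in 3 or more of 6 libraries, with Benjamini-Hochberg adjustment and a threshold of 0.05. The fit was tested on simulated data. Alternatives were another pseudocount, filter, scaling or table, voom on the recovered reads, the batch as a replicate block, and leaving out libraries. The batch number in the labels pairs the libraries. Deviations from the group means correlated at -0.21, -0.23 and -0.02 between same-numbered libraries, and highest, at 0.28, between control replicate 1 and cadmium replicate 2.

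FPKM depend on the library total, and the 10 genes with the most reads held 33.3% to 44.6% of it. Reads shared by near-identical copies can be split or dropped by counting, which bears on most histone genes: 46 of the 70 share 20% or more of their 100-base words with another annotated gene (GENCODE release 21 of mouse, GRCm38, which is mm10). Hairpins had to start with GG, end with CC, have a loop starting with TT, and lie at least 200 bases into the transcript, with G-T pairs allowed. Promoters came from RefSeq.

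The histone genes, the lists and the rule for named genes were chosen with earlier results of these data known. Every tested histone gene is named, with each library's value where it was called or among the 10 of highest mean FPKM. Of genes below the filter the 5 with the highest mean are named, and of each related list up to 6 called genes and up to 3 uncalled genes of highest mean. 1 gene of these lists is not reported here. Antibody-bound libraries were not analysed here.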

Additional observations from a re-analysis of the deposited data

How the results depend on the processing

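The count of called histone genes, 15, was 0 with no filter, 7 after quantile normalization and after trimmed mean scaling, 8 in the deposited log2 values, 4 with the replicate block, and 3 to 16 when 1 library was left out. All 7, 7, 8 and 4 were among the 15. It was 14 to 15 with the other pseudocount, the filter on the mean and voom on the recovered reads, 10 after upper quartile scaling, and 19 without both control replicate 1 and cadmium replicate 2, a setting chosen after seeing the data, and no histone gene was called lower under any of these. The count over all genes, 959, was 37 with no filter, 248 with the block, and 101 to 781 without 1 library. Of the related lists 4 genes were called, against 0 with no filter, 2 after upper quartile scaling, 1 with the block, 0 to 5 without 1 library and 2 without both named libraries. The ratio of summed FPKM, 1.31, was 1.16 in the deposited normalized reads.

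No called gene changed direction under any alternative. Among uncalled genes the log2 fold change changed sign after quantile normalization for Hist2h2ac (-0.013), Hist1h2bg (-0.028), Hist1h4b (-0.067), Hist1h4i (-0.0078) and Hist4h4 (-0.064), after trimmed mean scaling for Hist2h2ac (-0.035), Hist1h2bg (-0.057), Hist1h4b (-0.098), Hist1h4i (-0.014) and Hist4h4 (-0.0018), and after upper quartile scaling for Hist1h2bg (-0.0065) and Hist1h4b (-0.047). In the deposited log2 values it did so for Hist1h2ab (-0.0080), Hist2h2ac (-0.089), Hist1h2bc (-0.024), Hist1h2bg (-0.12), Hist1h4b (-0.16), Hist1h4c (-0.052), Hist1h4d (-0.027), Hist1h4i (-0.076) and Hist4h4 (-0.058), and with voom for Hist1h4b (-0.0019). Without both named libraries it did so for Hist1h2al (0.056), Hist1h2bc (-0.035), Hist1h2bg (-0.0056) and Hist1h4h (0.015). With 1 library or both named libraries left out, values ran from -0.26 to 0.084 for Hist1h2al, -0.054 to 0.26 for Hist1h2bc, -0.045 to 0.015 for Hist1h4h, -0.070 to 0.29 for Hist2h2ac, -0.11 to 0.21 for Hist1h4b, -0.11 to 0.27 for Hist1h2ab, -0.048 to 0.23 for Hist1h2bg and -0.027 to 0.38 for Hist1h3f, and no other gene changed sign.

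The replicate block changed no other call than those given, and the cause of these changes was not tested. Short genes of low FPKM can rest on few reads, as the 4 to 19 control reads of Hist1h2bm at 0.142 to 0.488 FPKM show. Long models hold more, with 435 to 1359 reads for Hist1h1d at 0.953 to 2.29 FPKM. With 3 libraries per group the precision of every value is limited.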
